A study of Mus musculus with 8 samples.

Results

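The 8 RNA-seq libraries of the series come as 2 numbered series of macrophage cultures, and the second was compared with the first. Members were chosen by title: the 4 libraries whose titles end in rep2 (set 2) were set against the 4 ending in rep1 (set 1), each matched with the library of the same titled genotype and treatment. Macrophages had been grown for 7 days from bone marrow of 8-week-old male C57BL/6J mice in medium conditioned by L929 cells, a fibroblast line that secretes macrophage colony-stimulating factor. Each set holds 1 library of each of 4 titled groups. Ern1f/f control and Ern1f/f IL-4 carry a floxed Ern1 gene, which encodes the endoplasmic reticulum stress sensor IRE1α. Ern1f/fLyz2-Cre control and Ern1f/fLyz2-Cre IL-4 carry the same floxed gene and Cre recombinase driven from the myeloid Lyz2 locus. IL-4, which drives alternative activation, was given at 20 ng/ml for 24 h. Every group has the floxed allele, and no group with an unmodified Ern1 gene is compared here.

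What a replicate number stands for is not stated in the labels. Separate animals, days, batches of conditioned medium and technical repeats cannot be told apart, and p-values measure only the spread between these samples. The labels also carry a separate genotype entry, which reads Ern1f/f in every library of set 1 and Ern1f/fLyz2-Cre in every library of set 2. By that entry set and genotype cannot be told apart, so groups follow the titles. Lyz2 encodes lysozyme and is the locus that carries the Cre. It read 18114, 8901, 10949 and 5779.5 FPKM in set 1 and 17415, 11961, 2171 and 1572 FPKM in set 2, in the order Ern1f/f control, Ern1f/f IL-4, Ern1f/fLyz2-Cre control, Ern1f/fLyz2-Cre IL-4. In both sets the library titled Ern1f/fLyz2-Cre lay below the Ern1f/f library of the same treatment. Ern1 (chr11:106397620-106487796, mm10) differed between the sets by -0.01 ± 0.14 on the log2 scale (SE; adjusted p = 0.95), and a value for the whole gene does not check the deletion. Values are FPKM, which scale for transcript length and library size, and every list of 4 values follows the order just given. Differences are set 2 minus set 1 on the log2(FPKM + 1) scale with their standard error, from limma with title group as a term. Genes count as called where the p adjusted by Benjamini-Hochberg over all tested genes lay under 0.05.

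Macrophages sense microbes and tissue damage, and the state of a culture shows in a few well known programmes. Type I interferons act through their receptor on a complex of transcription factors that includes STAT2 and IRF9 and binds a response element in the promoters of interferon-stimulated genes. Scavenger receptors take up modified lipoproteins, dead cells and particles, chemokines draw in other leukocytes, and cultures of whole marrow can keep stromal cells that make collagen and other matrix.

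Of 10934 genes tested, 1104 (10.1%) were called higher and 2553 (23.3%) lower in set 2. The median difference of all tested genes was -0.11, and 684 called genes differed by at least 1 log2 unit, 325 higher and 359 lower. After the libraries were centred on their medians, 1667 genes (15.2%) were called higher and 1704 (15.6%) lower, so the share of calls that were higher went from 30.2% to 49.5%. Of the 1104 genes called higher 1103 stayed called higher after centring, and of the 2553 called lower 1704 stayed called lower. In 1020 genes (9.33%) all 4 libraries of set 2 lay above all 4 of set 1, and in 2452 (22.4%) they lay below. Leaving out 1 library removes its pair from the comparison. The number called lower fell most without an Ern1f/f IL-4 library (1688 without replicate 1, 1686 without replicate 2) or an Ern1f/fLyz2-Cre control library (1468 and 1493). The interval widths in the files imply 30900000 to 37900000 fragments in set 1 and 21500000 to 31000000 in set 2. The Ern1f/f control pair was alike in depth, at 30900000 in set 1 and 31000000 in set 2. In each of the other pairs the library of set 2 had fewer fragments. The part of depth in the differences was not tested.

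The median absolute log2 difference between the sets was 0.22. The same measure was 0.15 for IL-4 against control and 0.05 for the titled genotypes. At least 1 log2 unit separated the sets in 713 genes, the treatments in 267 and the titled genotypes in 16. The gene lists below were chosen with earlier results of these data known, and each is read against the 10.1% and 23.3% of all tested genes. The plot of gene lists gives the called share of each list with at least 9 tested members.

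**Figure D1:**
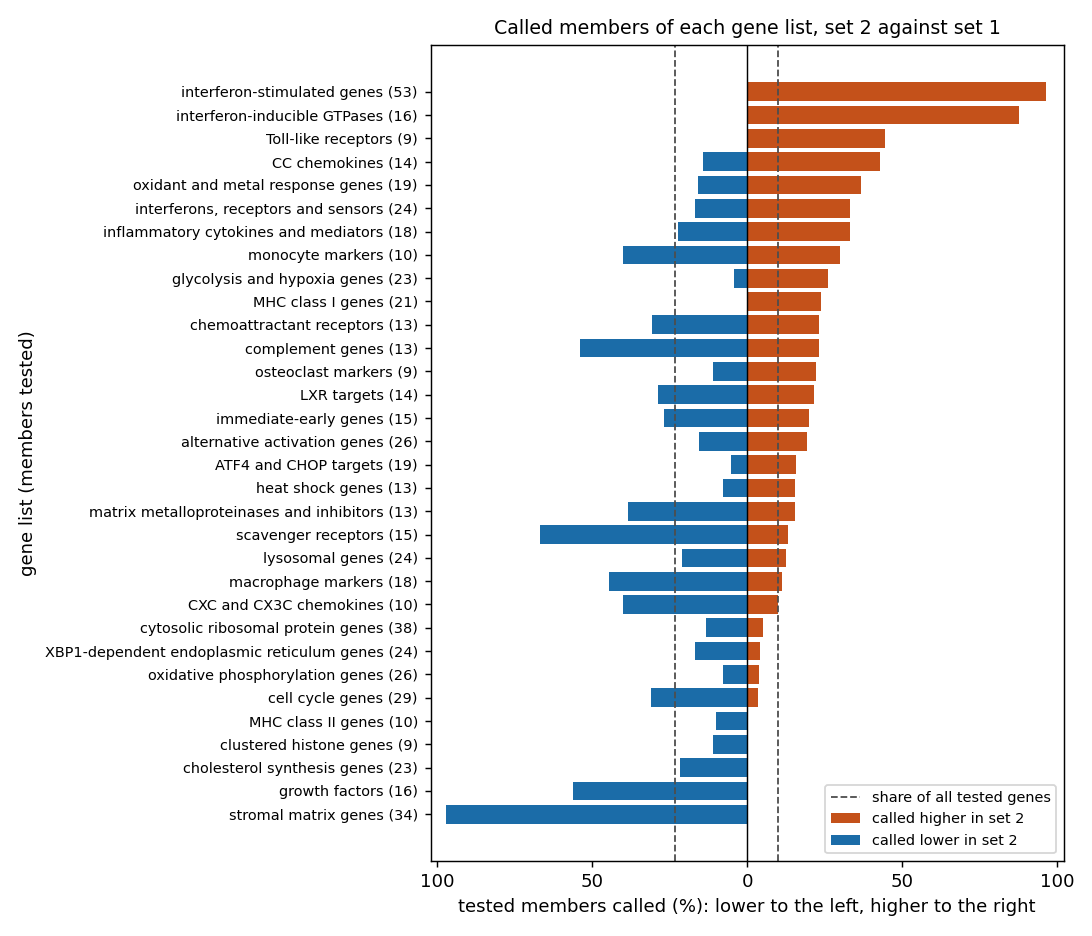
Share of tested members called higher (bars to the right) or lower (bars to the left) in set 2 for each gene list, in percent, with the number tested in brackets. Dashed lines mark the 10.1% and 23.3% of all 10934 tested genes, and the interferon-stimulated and stromal lists lie farthest from them in opposite directions.

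Interferon-stimulated genes were higher in set 2 almost without exception. Of 53 tested, 51 were called higher and 0 lower, with a median difference of 1.67 (all tested genes: -0.11). In 50 of the 53 all 4 libraries of set 2 lay above all 4 of set 1. The summed level of the list, in the order above, was 2360.1, 1819, 2106 and 1699.8 FPKM in set 1 and 6386, 5100.5, 6872 and 5915 FPKM in set 2. The median difference was 1.51 and 1.70 between the Ern1f/f control and IL-4 libraries, and 1.84 and 2.12 between the Ern1f/fLyz2-Cre control and IL-4 libraries. The 2 members not called were Lgals3bp (0.13 ± 0.08) and Ifi205 (0.68 ± 0.27).

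The response element of many such genes can be looked for in their promoter sequence. The core GAAANNGAAA was searched on both strands in the 250 bases before the start of each gene in the RefSeq promoter table (GRCm38.p6), with overlapping matches counted. It was found in 936 of 27025 genes (3.46%) and in 286 of the 8206 tested genes with an entry (3.49%). Among the interferon-stimulated genes 38 matched the table, and 15 of these (39.5%) held the core. Among the interferon-inducible GTPases it was 9 of 10. Of the stromal matrix genes 1 of 22 held it, of the CC chemokines 1 of 12 and of the scavenger receptors 0 of 13. A match is a description of the letters, not a bound site. Shown are the called interferon-stimulated genes with the smallest p that hold the core, written 5′ to 3′ on the gene's strand and ending at the base before the start, with the core in capitals. For Stat2 all 250 bases are given and for the others the last 160.
Isg15 (chr4:156200819-156200978, minus strand): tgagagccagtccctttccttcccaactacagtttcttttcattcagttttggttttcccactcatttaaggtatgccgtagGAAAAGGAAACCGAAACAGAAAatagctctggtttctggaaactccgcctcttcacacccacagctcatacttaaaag
Lgals9 (chr11:78984925-78985084, minus strand): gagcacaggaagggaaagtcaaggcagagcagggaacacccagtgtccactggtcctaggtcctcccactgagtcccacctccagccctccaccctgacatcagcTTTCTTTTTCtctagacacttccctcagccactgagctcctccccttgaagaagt
Stat2 (chr10:128270248-128270497, plus strand): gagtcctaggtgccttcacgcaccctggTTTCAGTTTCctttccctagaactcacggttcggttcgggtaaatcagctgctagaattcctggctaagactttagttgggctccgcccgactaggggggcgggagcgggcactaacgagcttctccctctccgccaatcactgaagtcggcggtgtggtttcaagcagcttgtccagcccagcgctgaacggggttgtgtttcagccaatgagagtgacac
Oas1a (chr5:120907526-120907685, minus strand): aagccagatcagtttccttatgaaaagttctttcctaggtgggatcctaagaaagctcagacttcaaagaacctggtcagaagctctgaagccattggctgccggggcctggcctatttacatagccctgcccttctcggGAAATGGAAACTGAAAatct
Isg15 held 3 overlapping matches, the first beginning 78 and the last 66 bases before its start. Oas1a held 2, and Lgals9 and Stat2 held 1 each. The match of Stat2 begins 222 bases before its start.

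Isg15, a ubiquitin-like modifier, read 20.1, 22.8, 33 and 14 FPKM in set 1 and 286, 214, 283 and 229 FPKM in set 2. All 4 libraries of set 2 lay above all 4 of set 1, a difference of 3.49 ± 0.16 (adjusted p = 0.000129). Usp18 encodes the protease that removes ISG15 from proteins and damps the interferon receptor. It read 4.55, 7.84, 5.18 and 5.82 FPKM in set 1 and 79.6, 84.7, 66.3 and 89 FPKM in set 2 (3.58 ± 0.11, adjusted p = 2.75e-05).

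The largest difference in the list was that of Ifit3, 1 of the Ifit genes, whose products bind foreign RNA. It read 13.5, 4.18, 11 and 2.44 FPKM in set 1 and 172, 193, 202 and 240.1 FPKM in set 2 (4.75 ± 0.40). Within each titled genotype the control library was above the IL-4 library in set 1 and below it in set 2. The same order held for Ifit1 (5.72, 3.06, 7.43 and 1.82 FPKM against 71.9, 99.6, 67.5 and 119 FPKM), Ifit2 (5.96, 4.1, 7.5 and 2.29 FPKM against 78.2, 125, 99.2 and 163 FPKM) and Rsad2, the antiviral enzyme viperin (5.02, 4.63, 6.73 and 2.05 FPKM against 65.3, 129, 78.8 and 157 FPKM). Their differences were 4.13 ± 0.38, 4.33 ± 0.35 and 4.26 ± 0.37. None of Ifit3, Ifit1, Ifit2 and Rsad2 had a called interaction with IL-4, and each value comes from 1 library. I830012O16Rik, listed under its clone name, went from 2.12, 0.531, 2.02 and 0.149 FPKM to 43.9, 35.6, 47 and 42.4 FPKM (4.41 ± 0.22). Ifit genes are near-identical in parts, and reads may be shared among them. The GTPase family gene Mx1 read 1.77, 1.78, 2.72 and 0.932 FPKM in set 1 and 31.2, 48.1, 43.1 and 64.6 FPKM in set 2 (4.08 ± 0.25).

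Further called members were Oasl1 (3.55 ± 0.15), Ifi44 (3.28 ± 0.12) and Phf11d (2.31 ± 0.09), all with non-overlapping sets. Ly6a, the stem cell antigen Sca-1, differed by 2.32 ± 0.11 and Lgals9, which encodes galectin 9, by 1.58 ± 0.08. Lgals9 was the most even of these, at 54.8, 47.1, 55.8 and 48 FPKM in set 1 and 175, 132, 174 and 143 FPKM in set 2. Genes of the signalling chain were called higher as well. Stat2 read 13.6, 15.1, 13.3 and 12.3 FPKM in set 1 and 58, 54.7, 67.8 and 61.6 FPKM in set 2 (2.08 ± 0.10), and Irf9 differed by 0.36 ± 0.09. Irf9 lost its call without any 1 of the 4 Ern1f/fLyz2-Cre libraries or without Ern1f/f control replicate 2 (adjusted p from 0.05 to 0.0859). Irf7, the factor that amplifies interferon production, read 46.2, 38.6, 36.1 and 27.7 FPKM in set 1 and 203, 141, 239 and 184 FPKM in set 2 (2.34 ± 0.16). The sensors of viral RNA and DNA Ddx58 (2.04 ± 0.12), Ifih1 (1.6 ± 0.13) and Zbp1 (2.9 ± 0.18) were called higher too.

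Interferon-inducible GTPases, which attack the vacuoles of intracellular microbes, gave 14 of 16 called higher and 0 lower (median 1.5). Iigp1 read 0.782, 0.559, 0.737 and 0.243 FPKM in set 1 and 7.09, 20.1, 11.1 and 28.1 FPKM in set 2 (3.32 ± 0.36). Igtp read 8.66, 6.72, 9.77 and 6.87 FPKM and 41.4, 35.6, 45.1 and 46 FPKM (2.26 ± 0.10). Iigp1 was uneven within set 2, with both IL-4 libraries above both control libraries, while Igtp was even. Tgtp2 (2.79 ± 0.17), Gbp6 (2.58 ± 0.16), Ifi47 (2.17 ± 0.14), Irgm2 (2.01 ± 0.17), Irgm1 (1.88 ± 0.12) and Tgtp1 (1.31 ± 0.12) were further called members. Tgtp1 and Tgtp2 are near-identical copies, and how reads were split between them is uncertain. Gvin1 (-0.12 ± 0.16) and Gbp5 (1.3 ± 0.42) were not called.

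The interferons, their receptors and the sensors upstream were divided. Of 28 measured 24 were tested, 8 called higher and 4 lower, with a median of 0.16. Ifnb1, which encodes interferon β, was listed at 0 in all 4 libraries of set 1 and read 0.345, 0.721, 0.20 and 0.716 FPKM in set 2, from at most 13 implied fragments. It was too low to be tested, as were Ifna4, Ifna2 and Ifng. All 3 receptor chains called were lower in set 2. Ifngr1, the binding chain of the interferon γ receptor, read 101, 90.4, 100.2 and 91.6 FPKM in set 1 and 41.9, 40.4, 41.5 and 45.7 FPKM in set 2 (-1.16 ± 0.08, adjusted p = 0.00037). Ifnar1 (-0.53 ± 0.13) and Ifnar2 (-0.51 ± 0.09), the chains of the type I receptor, were lower by less, and Ifngr2 differed by -0.04 ± 0.08 and was not called. Irf5 was lower (-0.45 ± 0.12), but not after centring (adjusted p = 0.0799). Without 1 IL-4 library the call of Irf5 was lost as well (adjusted p from 0.0844 to 0.103), and that of Ifnar1 was lost without 1 control library (adjusted p from 0.0708 to 0.0787). Enzymes that clear or edit nucleic acids were higher: Samhd1 (1.21 ± 0.13), Trex1 (1.14 ± 0.09) and Adar (0.99 ± 0.10). So were the nucleic acid receptors Tlr9 (1.32 ± 0.22) and Tlr3 (0.68 ± 0.15) and the adaptor Ticam1 (0.49 ± 0.09).

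**Figure D2:**
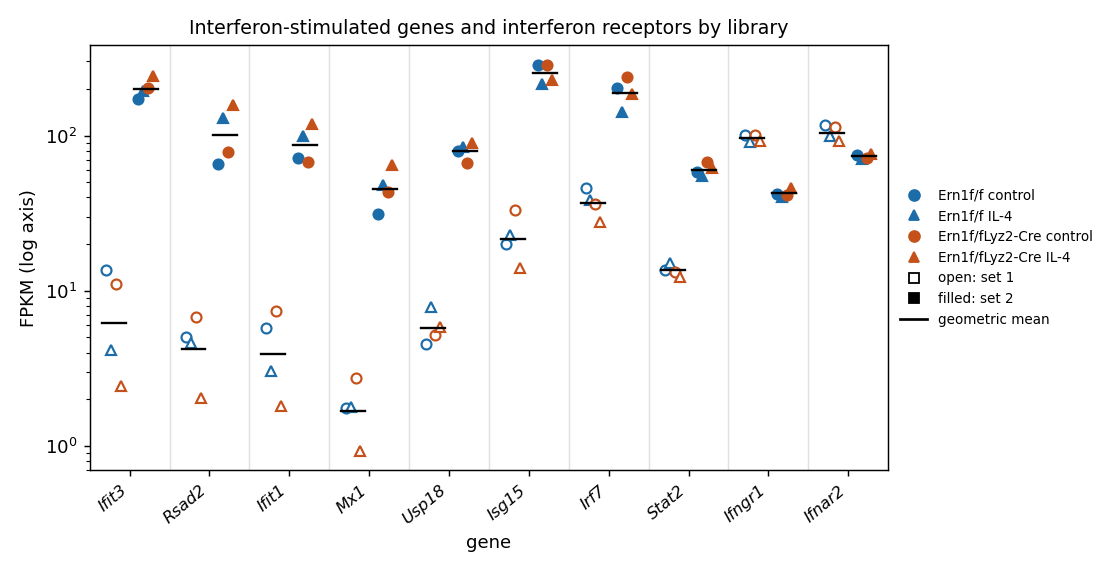
FPKM (log axis) of 8 interferon-stimulated genes and 2 interferon receptor genes in each of the 8 libraries, with bars at the geometric mean of each set. Filled symbols (set 2) lie above open symbols (set 1) for the first 8 genes and below them for Ifngr1 and Ifnar2.

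Genes of stromal cells went the other way. Of 36 matrix and fibroblast genes 34 were tested, 33 were called lower in set 2 and 0 higher, with a median difference of -3.33. In 33 the 4 libraries of set 2 lay below the 4 of set 1. Some members, such as Col3a1 and Col12a1, reached 1 FPKM in set 1 only, so the filter largely fixed their direction. The summed level of the list, in the same library order, was 1087, 419.7, 2157 and 949 FPKM in set 1 and 207, 103, 142 and 65.1 FPKM in set 2. No member was at 0 in every library of set 2. In this bulk RNA fewer cells of a type and less RNA per cell cannot be told apart. The levels moved with the interferon genes in the opposite direction, and their part in the other differences was not tested. Within set 1 the library with the highest stromal sum, Ern1f/fLyz2-Cre control, had the second highest sum of interferon-stimulated genes, and the library with the lowest stromal sum had the third highest. Both sums were higher in each control library of set 1 than in each of its IL-4 libraries. In these ranks treatment and stromal level cannot be told apart.

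Col1a1, a chain of type I collagen, read 65, 31.1, 203 and 87.8 FPKM in set 1 and 2.59, 2.21, 0.708 and 0.444 FPKM in set 2 (-5.09 ± 0.55, adjusted p = 0.0016). Its partner Col1a2 read 58.4, 26.2, 160.2 and 67.9 FPKM and 2.08, 1.8, 0.563 and 0.475 FPKM (-4.95 ± 0.51). Within set 1 both were higher in each Ern1f/fLyz2-Cre library than in the matching Ern1f/f library, and higher in control than in IL-4 within each titled genotype. Within set 2 the Ern1f/fLyz2-Cre libraries were the lower ones, at levels of 0.444 to 2.59 FPKM over the set. Neither gene had a called interaction with the titled genotype, and each value comes from 1 library.

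Sparc, a collagen-binding matrix protein gene, showed the same layout, with 74.8, 30.9, 195 and 99.8 FPKM in set 1 and 3.19, 3.44, 1.37 and 0.774 FPKM in set 2 (-4.81 ± 0.55). Its interaction with the titled genotype was not called either. The proteoglycan genes Bgn (-4.67 ± 0.47) and Dcn (-3.09 ± 0.23), the growth factor gene Ctgf (-4.45 ± 0.47), the smooth muscle actin gene Acta2 (-4.29 ± 0.50) and Serpinf1 (-4.2 ± 0.42) were called lower. Aebp1, which is on no list, differed by -4.31 ± 0.45. Col6a1 (-3.78 ± 0.34), Col6a2 (-3.66 ± 0.33), Col5a2 (-3.43 ± 0.34), Postn (-3.78 ± 0.32), Mgp (-3.76 ± 0.36) and Igfbp4 (-1.76 ± 0.16) were further members. Lox, which crosslinks collagen, was the exception. It read 36.8, 26.7, 69.1 and 48.8 FPKM in set 1 and 95.9, 36.5, 67.3 and 29.2 FPKM in set 2 (0.26 ± 0.30, adjusted p = 0.536), with overlapping sets.

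Markers of bone-forming cells were lower too, with 6 of 6 tested members called lower and 0 higher (median -1.61). Alpl, Bglap and Bglap2 reached the 1 FPKM needed for testing only in set 1. Sp7 and Ibsp had at most 6 and 2 implied fragments in set 2. For members admitted through set 1 alone, a lower value in set 2 was largely fixed by the filter. The summed level of the list was 7.92 to 44.2 FPKM in set 1 and 1.07 to 1.65 FPKM in set 2. Alpl, the alkaline phosphatase of mineralising cells, read 7.39, 2.03, 18.7 and 7.35 FPKM in set 1 and 0.292, 0.104, 0.0943 and 0.028 FPKM in set 2 (-2.84 ± 0.39). Ibsp (-1.62 ± 0.30), the osteoblast factor gene Sp7 (-1.66 ± 0.30) and Runx2 (-0.86 ± 0.12) followed. The remaining 4 of the 10 listed genes stayed under 1 FPKM in every library.

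Some protease inhibitor and growth factor genes were lower in set 2 too, and which cells made them was not tested. Timp1, an inhibitor of matrix metalloproteinases, read 88.1, 39.4, 192 and 109 FPKM in set 1 and 3.28, 3.55, 1.21 and 2.35 FPKM in set 2 (-4.76 ± 0.47), and Timp3 differed by -4.19 ± 0.52. Of 13 metalloproteinases and inhibitors tested 2 were called higher and 5 lower, and after centring 3 and 5. Mmp12, the macrophage elastase, was higher at 129, 373, 94.2 and 360.3 FPKM in set 1 and 365, 861, 366 and 868 FPKM in set 2 (1.48 ± 0.14), and Mmp23 was lower (-1.86 ± 0.28). Of 16 growth factors 0 were called higher and 9 lower. Csf1 encodes macrophage colony-stimulating factor. It read 23.3, 18.1, 43.1 and 32.4 FPKM in set 1 and 3.6, 7.2, 2.77 and 4.75 FPKM in set 2 (-2.43 ± 0.33). Pdgfa (-0.95 ± 0.13), Tgfb3 (-1.53 ± 0.22) and Hbegf (-0.86 ± 0.13) were also lower.

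**Figure D3:**
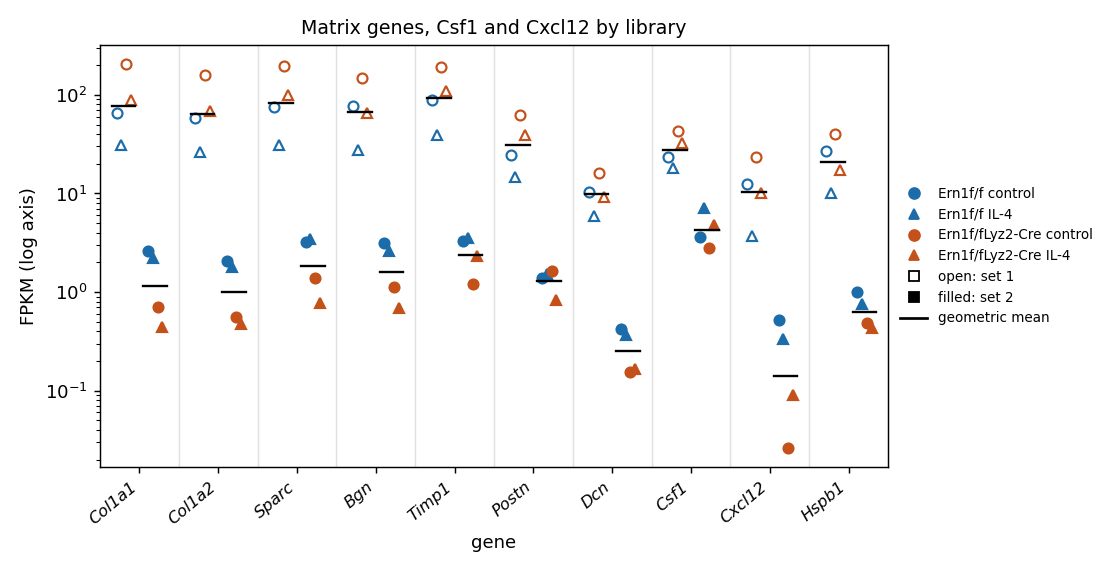
FPKM (log axis) of matrix genes, the inhibitor gene Timp1, the cytokine gene Csf1, the chemokine gene Cxcl12 and the small heat shock protein gene Hspb1 in each library, with bars at the geometric mean of each set. Every open symbol (set 1) lies above every filled symbol (set 2) of the same gene.

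Scavenger receptors split by gene. Of 15 tested of 21 listed, 2 were called higher and 10 lower (median -0.60), and 7 of the 10 remained called lower after centring. Without an Ern1f/f control library 6 were called lower (replicate 1 or 2 left out), and without an Ern1f/fLyz2-Cre control library 5 (replicate 1) or 6 (replicate 2). Marco, a class A receptor for bacteria and particles, had the largest difference. It read 14.7, 5.18, 17.5 and 3.36 FPKM in set 1 and 412, 240.3, 271 and 194 FPKM in set 2 (4.84 ± 0.25, adjusted p = 0.000175). The lowest library of set 2 was above the highest of set 1, and in both sets the IL-4 libraries were below the control libraries. Cd5l, which encodes a secreted macrophage protein of the scavenger receptor cysteine-rich family, read 42.6, 15.4, 29.4 and 11.2 FPKM in set 1 and 122, 48.4, 92.3 and 46.6 FPKM in set 2 (1.67 ± 0.10).

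The other class A receptor gene at a sizeable level, Msr1, went the opposite way to Marco. It read 153, 138, 123 and 127 FPKM in set 1 and 84.5, 97.3, 55 and 74.9 FPKM in set 2 (-0.81 ± 0.12). Scarb1, the receptor for high-density lipoprotein, read 58.4, 52.6, 60.8 and 53 FPKM and 40.7, 35.4, 36.1 and 34.6 FPKM (-0.60 ± 0.08), again without overlap. Lrp1, an endocytic receptor for apolipoproteins (-0.65 ± 0.13), the mannose receptor gene Mrc1 (-0.46 ± 0.11), Cxcl16, a membrane-bound chemokine that also binds oxidised lipoprotein (-0.62 ± 0.12), and Scara3 (-1.11 ± 0.21) were lower. Scarb2, a lysosomal membrane protein gene, was lower as well (-0.69 ± 0.16). Stab1, a clearance receptor for matrix fragments and lipoproteins (-0.76 ± 0.24), Timd4, a receptor for dying cells (-0.70 ± 0.19), and the endosomal glycoprotein gene Cd68 (-0.40 ± 0.09) were lower but lost the call after centring (adjusted p = 0.0794, 0.0698 and 0.057). These 3, Mrc1 and Scarb2 were the members that lost the call when 1 library was left out. Stab1, Cd68 and Mrc1 lost it without any 1 of 6 libraries (adjusted p at most 0.159, 0.0792 and 0.0607). Scarb2 lost it without any 1 of 4 (at most 0.0749) and Timd4 without any 1 of 2 (at most 0.12). Cd36 read 202, 316, 149 and 249.9 FPKM in set 1 and 125, 246, 182 and 391 FPKM in set 2, overlapping and not called. Cd163 stayed under 1 FPKM in every library.

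The gene with the largest difference among those called higher was a CC chemokine, Ccl8. Of 14 tested of 18 listed, 6 were called higher and 2 lower (median 0.46). Ccl8 is a chemokine for monocytes and T cells. It read 0.873, 1.24, 1.2 and 3.42 FPKM in set 1, from 8 to 40 implied fragments, and 249, 384, 279 and 513 FPKM in set 2, from 2176 to 4443 (7.09 ± 0.11, adjusted p = 9.08e-07). The highest library of set 1 lay far below the lowest of set 2, and within each set the IL-4 libraries were above the control libraries. Ccl12, a ligand of CCR2, read 0.297, 0.938, 1.45 and 2.49 FPKM in set 1 and 21.3, 44.1, 36.3 and 51.5 FPKM in set 2 (4.12 ± 0.12, adjusted p = 2.15e-05). Both genes lie with Ccl2 and Ccl7 in a cluster on chromosome 11 (mm10), with Ccl2 at 82035577 to 82037452, Ccl12 at 82101845 to 82103399 and Ccl8 at 82115185 to 82116799.

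The monocyte attractants Ccl2 and Ccl7 were higher by less. Ccl2 read 9.99, 24, 27.3 and 38.5 FPKM in set 1 and 61.7, 109, 48.3 and 93.2 FPKM in set 2 (1.68 ± 0.27). Ccl7 read 13.5, 28.3, 24.7 and 51.9 FPKM and 33.3, 161, 35 and 162 FPKM (1.45 ± 0.29), with sets that overlap. Its call was lost without either Ern1f/fLyz2-Cre IL-4 library (adjusted p from 0.0533 to 0.0548). Ccl11, in the same cluster, stayed under 1 FPKM in every library. Ccl3, which encodes a macrophage inflammatory protein, read 51.1, 28.5, 141 and 19.7 FPKM in set 1 and 437, 229.6, 313 and 179.8 FPKM in set 2 (2.58 ± 0.33), and Ccl4 differed by 1.84 ± 0.16. Ccl5, an attractant of T cells, read 184, 169.9, 179 and 127 FPKM and 213, 193, 256 and 354 FPKM without overlap, and was not called (0.60 ± 0.22, adjusted p = 0.0756). Lower were Ccl9 (-0.55 ± 0.11) and Ccl27a (-0.41 ± 0.08). Ccl6 (0.16 ± 0.10) was not called.

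Among CXC and CX3C chemokines 1 of 10 tested was called higher and 4 lower. Cxcl10, an interferon-induced attractant of T cells, read 1.8, 4.5, 18.6 and 0.851 FPKM in set 1 and 19.7, 42.5, 25.5 and 41 FPKM in set 2 (2.7 ± 0.57). Its set 1 value was highest in the Ern1f/fLyz2-Cre control library, just below the lowest of set 2. Without either Ern1f/f control library the call of Cxcl10 was lost (adjusted p from 0.0551 to 0.0565). Cxcl12, a stromal retention signal of the marrow, read 12.4, 3.74, 23.5 and 10.1 FPKM in set 1 and 0.515, 0.33, 0.0264 and 0.0901 FPKM in set 2 (-3.23 ± 0.39). Cxcl14 (-1.66 ± 0.28), Cx3cl1 (-0.64 ± 0.16) and Cxcl16 were lower too. Cx3cl1 lost its call without any 1 of 4 libraries (adjusted p at most 0.0855). The platelet chemokine gene Pf4 (0.26 ± 0.14) was not called.

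Of 13 chemoattractant receptors tested, 3 were called higher and 4 lower. The formyl peptide receptors, which sense bacterial peptides, were higher. Fpr1 read 25.7, 2.34, 18.6 and 1.28 FPKM in set 1 and 141, 48.4, 118 and 45.5 FPKM in set 2 (3.31 ± 0.33). Fpr2 read 9.99, 1.55, 12.3 and 1.34 FPKM and 83.6, 27.4, 83.4 and 25.9 FPKM (3.15 ± 0.16). In both sets and for both genes the IL-4 libraries were below the control libraries. Cmklr1, the chemerin receptor, was higher by less (0.50 ± 0.08). C5ar1, the receptor for complement fragment C5a, was lower at 143, 99.4, 137 and 93.5 FPKM in set 1 and 56.9, 44, 44 and 37.5 FPKM in set 2 (-1.35 ± 0.10, adjusted p = 0.000386). Cx3cr1, the receptor for CX3CL1 (-1.49 ± 0.41), Ccr3, the eotaxin receptor (-1.1 ± 0.18), and Cxcr3, the receptor for CXCL10 (-1.03 ± 0.27), were lower. The calls of Cx3cr1 and Cxcr3 were lost without any 1 of the 4 control libraries (adjusted p at most 0.0983 and 0.106), and that of Cx3cr1 also after centring (adjusted p = 0.0536). Ccr2, the receptor for CCL2 and CCL12, was not called (-0.25 ± 0.22).

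**Figure D4:**
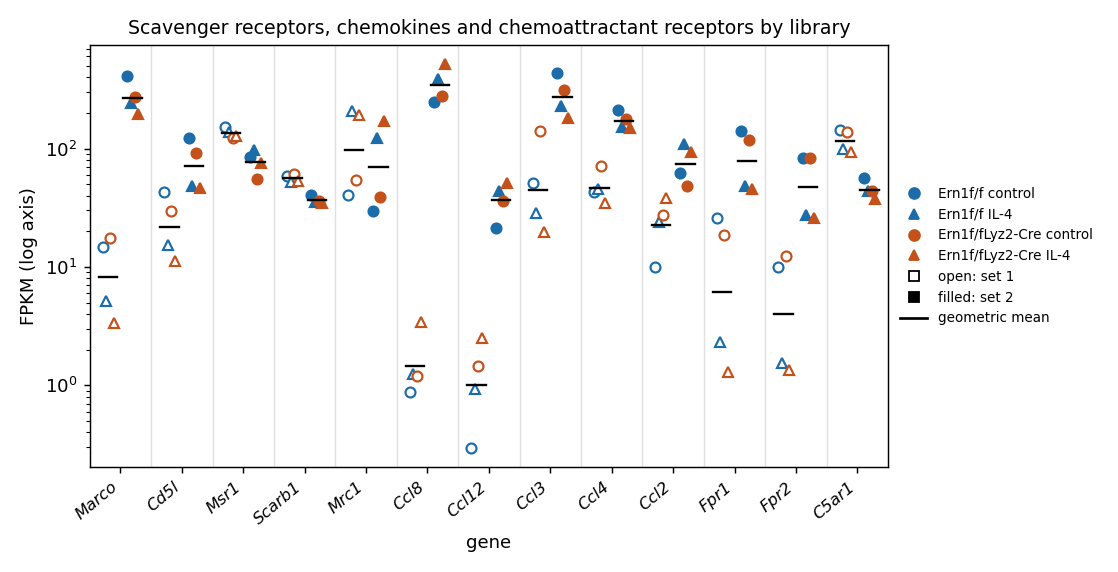
FPKM (log axis) of 5 scavenger receptor genes, 5 CC chemokine genes and 3 chemoattractant receptor genes in each library, with bars at the geometric mean of each set. Filled symbols (set 2) lie above open symbols (set 1) for Marco, Cd5l, the chemokines and Fpr1 and Fpr2, and below them for Msr1, Scarb1 and C5ar1, while the sets overlap for Mrc1.

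Inflammatory mediators gave 6 called higher and 4 lower of 18 tested, and 6 and 2 after centring. Il10, the anti-inflammatory cytokine gene, read 1.19, 0.718, 1.07 and 1.02 FPKM in set 1 and 12.7, 8.88, 19.6 and 12.3 FPKM in set 2 (2.8 ± 0.14). The acute-phase gene Saa3 read 456, 305, 501 and 192 FPKM and 2214, 959, 3272 and 1194 FPKM (2.32 ± 0.18). The iron-binding lipocalin gene Lcn2 differed by 3.15 ± 0.30. For all 3 the sets did not overlap. Il1b read 6.63, 7.3, 58.7 and 2.09 FPKM in set 1 and 5.06, 5.04, 3.34 and 2.37 FPKM in set 2 and was not called (-1.11 ± 0.61, adjusted p = 0.201). Its Ern1f/fLyz2-Cre control library of set 1 stood apart from the other 7.

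Complement genes gave 3 called higher and 7 lower of 13 tested. Serping1, the C1 inhibitor gene, read 11.3, 4.81, 17.8 and 10.2 FPKM in set 1 and 0.403, 0.413, 0.203 and 0.0604 FPKM in set 2 (-3.14 ± 0.28). Cd55, which accelerates the decay of complement convertases, was higher at 5.02, 1.53, 3.65 and 1.02 FPKM in set 1 and 32.5, 25.7, 16.8 and 20.1 FPKM in set 2 (2.8 ± 0.25). The chains of C1q were lower, by -1.06 ± 0.23 for C1qa, -0.75 ± 0.10 for C1qb and -0.67 ± 0.12 for C1qc. Of 7 Fc receptors tested, Fcrls (1.76 ± 0.18), Fcgr4 (1.7 ± 0.20) and Fcgr1 (1.47 ± 0.14) were called higher and Fcgr3 (-0.77 ± 0.11) lower. Of 9 Toll-like receptors 4 were called higher and 0 lower, with Tlr9, Tlr3, Tlr1 (0.86 ± 0.17) and Tlr6 (0.29 ± 0.08). Calls of C1qa, Tlr1 and Tlr6 were lost without any 1 of 4, 3 and 6 libraries (adjusted p at most 0.0629, 0.0517 and 0.084).

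Genes of MHC class I presentation gave 5 of 21 called higher and 0 lower. The transactivator gene Nlrc5 differed by 1.28 ± 0.10, the peptide transporter gene Tap1 by 0.95 ± 0.11, H2-T22 by 1.15 ± 0.11 and Psme2 by 0.70 ± 0.15. The other 16 were not called. Of 10 class II genes 1 was called, H2-DMb2, which was lower (-1.8 ± 0.11).

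The libraries expressed the macrophage markers in both sets. All 18 were tested, 2 called higher and 8 lower (median -0.35), and 5 stayed lower after centring. Apoe, which carries lipid out of macrophages, read 19709, 14199, 22859 and 14688 FPKM in set 1 and 4904, 2558, 6486 and 3319.7 FPKM in set 2 (-2.11 ± 0.12, adjusted p = 0.000233). Csf1r, the receptor for macrophage colony-stimulating factor, read 769.6, 869.9, 780.2 and 749 FPKM in set 1 and 429, 509, 356 and 529 FPKM in set 2 (-0.81 ± 0.11). Fcgr1, the high-affinity Fc receptor CD64, was among the 2 called higher.

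Markers of other blood cells were low in part. The B cell genes Cd79a and Ms4a1, the T cell genes Cd3e, Cd3d and Cd3g, and the neutrophil granule genes Ltf, Camp and Elane stayed under 1 FPKM in every library. Other members were not low. Blnk of the B cell list read 70.6 to 82.7 FPKM in set 1 and 74.5 to 92.5 FPKM in set 2. Csf3r of the neutrophil list read 27.5 to 31.9 and 24.6 to 49.1 FPKM, and neither was called. The T and NK cell list summed to 74.9 to 92.9 FPKM in set 1 and 55.5 to 72.2 FPKM in set 2. Most of that sum was Il7r, with 8227 to 9729 implied fragments in set 1 and 4415 to 6804 in set 2. Il7r differed by -0.32 and was not called. Of the 10 measured members of that list 7 stayed under 1 FPKM in every library. Of 4 B cell markers tested 1 was called higher and 2 lower. Cd79b was higher (1.5, 0.524, 1.53 and 0.693 FPKM in set 1, 11.8, 4.97, 16.6 and 7.49 FPKM in set 2, 2.36 ± 0.13), while Cd22, which encodes an inhibitory B cell receptor, was lower (-0.57 ± 0.10). Of 2 T and NK cell markers tested Cd4 was lower (-1.34 ± 0.22). S100a9 read 0.12, 0, 0 and 0.188 FPKM in set 1 and 5.34, 3.74, 0.698 and 0.882 FPKM in set 2 (1.54 ± 0.34). Of 10 mast cell markers 0 were tested, since none reached 1 FPKM in 2 libraries. Among monocyte markers 3 were called higher and 4 lower of 10 tested, with Ly6c1 (-1.47 ± 0.25), Vcan (-0.82 ± 0.19) and S100a6 (-0.70 ± 0.15) lower and Plac8 (1.46 ± 0.36) higher. Vwf was the 1 endothelial marker called of 3 tested (1.17 ± 0.15), while Cdh5, Tek and Cldn5 stayed under 1 FPKM. Among 9 osteoclast markers Acp5 (1.43 ± 0.14) and Ctsk (1.42 ± 0.13) were higher and Mmp9 (-0.83 ± 0.19) lower. Calls of S100a9, Vcan, S100a6, Plac8 and Mmp9 were lost without any 1 of 1, 3, 2, 3 and 4 libraries (adjusted p at most 0.0547, 0.0642, 0.0548, 0.06 and 0.0689).

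Some genes of alternative activation, the programme that IL-4 induces, differed between the sets. Of 26 tested 5 were called higher and 4 lower, beside 10.1% and 23.3% of all tested genes. The list median of -0.10 was close to the -0.11 of all tested genes. Chi3l3, a chitinase-like lectin, read 0.844, 476, 0.407 and 655 FPKM in set 1 and 999, 4276, 1088 and 6637 FPKM in set 2 (6.3 ± 1.19, adjusted p = 0.00989). Every library of set 2, control libraries included, was above every library of set 1. Chi3l4, its near-identical relative, differed by 2.47 ± 0.10, and how reads were split between them is uncertain. The eosinophil ribonuclease relative Ear11 was higher (2.53 ± 0.52). Retnla read 0.323, 1256, 0.222 and 1482 FPKM in set 1 and 12.1, 635, 87.7 and 2485 FPKM in set 2, overlapping and not called (2.31 ± 1.06, adjusted p = 0.136). Arg1, an arginase, was called higher by 0.74 ± 0.16 with overlapping sets. Its control libraries held at most 0.0611 FPKM in set 1 and at least 0.685 FPKM in set 2. The call of Arg1 was lost without any 1 library other than the Ern1f/f IL-4 ones (adjusted p from 0.0501 to 0.0618). Lower were the cytokine signalling suppressor gene Socs2 (-1.57 ± 0.11), the β-glucan receptor gene Clec7a (-1.11 ± 0.09) and the transglutaminase gene Tgm2 (-0.93 ± 0.14).

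Among metabolic lists, glycolysis and hypoxia genes gave 6 called higher and 1 lower of 23 tested. Ndrg1, a gene induced by low oxygen, read 18.9, 9.79, 18 and 8.75 FPKM in set 1 and 316, 73.6, 424 and 99.9 FPKM in set 2 (3.66 ± 0.26). Pfkfb3 (1.18 ± 0.09), Pgk1 (0.60 ± 0.09) and Ero1l (0.58 ± 0.10) were higher by less. Cholesterol synthesis gave 0 higher and 5 lower of 23, with the regulator gene Srebf2 (-0.52 ± 0.10) among the lower ones. That share lower was near the 23.3% of all tested genes. After centring 4 were lower, beside 15.6% of all tested genes. Of 14 LXR targets 3 were called higher and 4 lower, and after centring 4 and 3. Nr1h3, which encodes LXRα, was lower (-1.26 ± 0.15) and the lipid transfer gene Pltp higher (1.0 ± 0.20). Pparg, a lipid-sensing factor, was lower (-1.07 ± 0.11). Of 26 oxidative phosphorylation genes 1 was called higher and 2 lower, and after centring 3 and 1.

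Oxidant and metal response genes gave 7 higher and 3 lower of 19. Mt2, a metallothionein, read 67.6, 20.9, 131 and 53.9 FPKM in set 1 and 451, 259, 316 and 229 FPKM in set 2 (2.4 ± 0.34). Prdx1 was higher (0.64 ± 0.08), and Gclc (-0.64 ± 0.10) and the ferritin light chain gene Ftl1 (-0.47 ± 0.08) were lower. Ftl1 differed by 0.00 after quantile normalization (adjusted p = 1). Of 24 XBP1-dependent endoplasmic reticulum genes 1 was called higher, Herpud1 (1.14 ± 0.15), and 4 lower, of which 0 remained called after centring. Xbp1 itself differed by -0.08 ± 0.09 and was not called. Of 13 heat shock genes 2 were higher and 1 lower, the small heat shock protein gene Hspb1 (26.8, 10.02, 39.7 and 17.3 FPKM in set 1, 0.989, 0.756, 0.481 and 0.43 FPKM in set 2, -3.73 ± 0.30). The DNA replication genes Mcm7 (-0.77 ± 0.10), Mcm4 (-0.50 ± 0.07), Mcm2 (-0.59 ± 0.10) and Rrm2 (-0.84 ± 0.14) were among 9 cell cycle genes called lower of 29 tested (6 after centring), with 1 higher. Of 38 ribosomal protein genes 2 were called higher and 5 lower (median 0.0031), and after centring 3 and 2. Of 24 lysosomal genes 3 were higher and 5 lower, and after centring 3 and 1. The share lower before centring was near the 23.3% of all tested genes.

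Outside the lists, Slc13a3, a transporter of dicarboxylates, had the largest difference after Ccl8 among genes called higher. It read 9.95, 6.19, 6.61 and 2.41 FPKM in set 1 and 667, 431, 806 and 601 FPKM in set 2 (6.51 ± 0.26, adjusted p = 6.39e-05). Calb2, which encodes the calcium-binding protein calretinin, was listed at 0 in all 4 libraries of set 1 and read 21.2, 7.88, 28.8 and 9.96 FPKM in set 2, so no fold is given. It was 1 of 4 genes with at least 2 FPKM in every library of set 2 and under 0.2 FPKM in every library of set 1. The others were Raver2 (0.0866, 0.0347, 0.0597 and 0.105 FPKM in set 1, 22.7, 9.03, 24.7 and 10.7 FPKM in set 2), 1700003M07Rik (0.0705, 0.0601, 0.0144 and 0.0126 FPKM and 15.3, 4.73, 13.3 and 4.49 FPKM) and Lancl3 (0.103, 0.141, 0.0675 and 0.101 FPKM and 5.91, 5.3, 3.37 and 4.41 FPKM). The reverse held for 4 genes. Dkk3, a relative of Wnt inhibitors, read 6.92, 2.99, 15.6 and 8.37 FPKM in set 1 and 0.111, 0.114, 0.0345 and 0.0205 FPKM in set 2. The homeobox gene Irx3 read 4.01, 2.34, 8.57 and 4.96 FPKM and 0.128, 0.0563, 0.0678 and 0 FPKM. Gstm3, one of several similar glutathione transferase genes, read 10.7, 9.01, 12.5 and 5.73 FPKM in set 1 and was listed at 0 in set 2. Mir686 was listed at 0 in set 2 as well, but a microRNA gene is shorter than a library fragment and its FPKM is uncertain. Also uncertain, because near-identical copies exist, are the lower values of H2-L (-6.49 ± 0.09) and the pseudogene Rps15a-ps6 (-5.31 ± 0.18).

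Set differences that varied with treatment were tested as an interaction. It was called in 15 genes (0.137% of those tested), 6 with a larger value of set 2 minus set 1 in IL-4 than in control libraries and 9 with a smaller one. An unadjusted p under 0.05 was found in 1528 genes, and 5% of the tested genes are 546.7. The count ranged from 1 to 127 over the alternatives and was 6 or 9 without an Ern1f/f IL-4 library (replicate 1 or 2), 2 or 3 without an Ern1f/fLyz2-Cre IL-4 library (replicate 1 or 2) and 28 without Ern1f/f control replicate 2. For Chi3l3 the sets differed by 9.34 in control and 3.25 in IL-4 libraries (interaction -6.09 ± 0.20, adjusted p = 0.000186). That call held without any 1 library. Serpina3g, a protease inhibitor gene, read 1.03, 3.61, 1.85 and 4.34 FPKM in set 1 and 2.88, 35, 3.59 and 42.5 FPKM in set 2 (2.18 ± 0.16). The tubulin gene Tuba8 read 0.023, 0.994, 0.0634 and 1.22 FPKM and 0.266, 12, 0.0299 and 16.1 FPKM (2.70 ± 0.21). In both the IL-4 libraries of set 2 stood above the rest. Ctla2b was lower in set 2 in control libraries and higher in IL-4 libraries (71.5, 14.3, 50.9 and 14.1 FPKM in set 1, 18.2, 24.5, 18.7 and 22.9 FPKM in set 2). The chemokine gene Ccl17 was listed at 0 in all 4 control libraries, and with IL-4 it read 8.46 and 6.84 FPKM in set 1 and 1.06 and 0.571 FPKM in set 2 (-2.26 ± 0.19). Serpina3g, Tuba8, Ctla2b and Ccl17 each lost the call without any 1 of the IL-4 libraries (adjusted p at most 0.362, 0.362, 0.362 and 0.407), and Ctla2b and Ccl17 also after centring. Mir223, Snora15 and Snora17 are short RNA genes with uncertain FPKM. Each was listed at 0 in every library of set 2 and in 2 libraries of set 1, and none rested on more than 3 implied fragments in any library.

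An interaction with the titled genotype was called in 10 genes (0.0915%), 3 larger and 7 smaller in the Ern1f/fLyz2-Cre libraries. Here 548 genes had an unadjusted p under 0.05, close to that 5%. The count was 29 or 24 without Ern1f/f control replicate 1 or 2, 2 or 3 without Ern1f/fLyz2-Cre control replicate 1 or 2, and 3 or 5 without Ern1f/fLyz2-Cre IL-4 replicate 1 or 2. Ctse, the protease cathepsin E gene, read 2.41, 1.41, 21.3 and 10.7 FPKM in set 1 and 14.6, 14, 8.01 and 7.22 FPKM in set 2 (-3.33 ± 0.30, adjusted p = 0.0218). In set 1 the Ern1f/fLyz2-Cre libraries were the higher ones, and in set 2 the lower ones. Treml1, a receptor gene of platelets, had the same layout (1.35, 0.971, 4.31 and 2.94 FPKM in set 1, 5.93, 5.82, 1.42 and 1.69 FPKM in set 2). H2-T24, a class I relative, was higher in all 4 libraries of set 2, by more in the Ern1f/f libraries (9.87, 8.21, 19.8 and 16 FPKM in set 1, 53.3, 43.1, 30.7 and 23.8 FPKM in set 2). Ifi202b, an interferon-inducible gene of a family with similar copies, read 0, 0.0169, 16.7 and 18.1 FPKM in set 1 and 0, 0, 0 and 0.0205 FPKM in set 2. It was thus above 1 FPKM only in the 2 libraries of set 1 titled Ern1f/fLyz2-Cre. Lyz2 was among the 10 (-2.29 ± 0.24, adjusted p = 0.0406), with less of it in the Ern1f/fLyz2-Cre libraries of set 2 than in those of set 1. The small RNA genes Snora65, Snord22 and Snora28 were the 3 larger ones, rested on at most 13 implied fragments in any library, and are uncertain. Without any 1 of 2, 6, 7 and 6 libraries the calls of Ctse, Treml1, H2-T24 and Lyz2 were lost (adjusted p at most 0.141, 0.141, 0.268 and 0.237), as they were after centring.

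**Figure D5:**
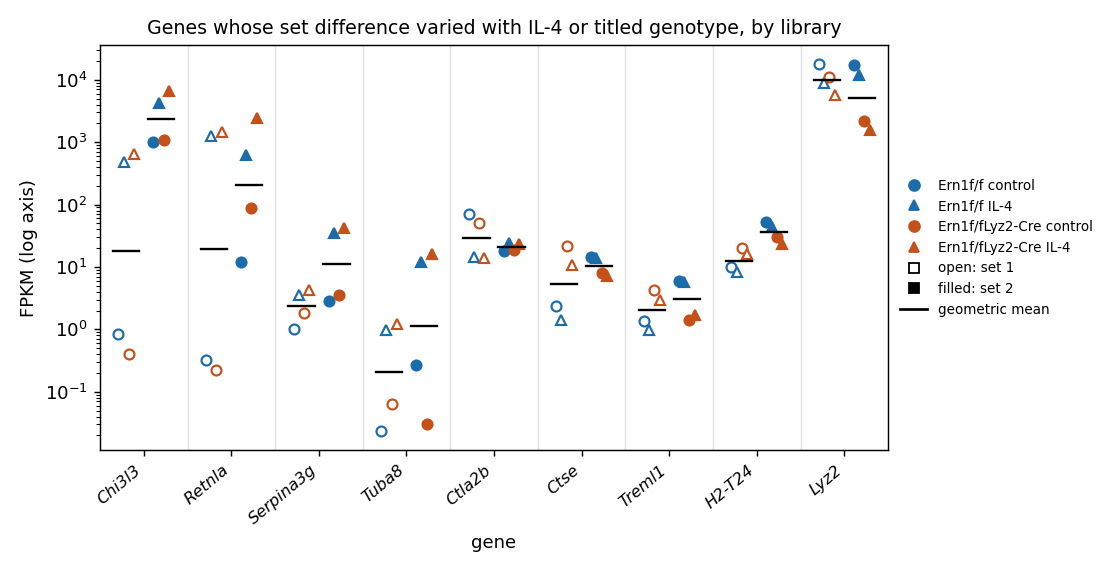
FPKM (log axis) of 8 genes with a called interaction and of Retnla, which had none, in each library, with bars at the geometric mean of each set. For Chi3l3 the 2 open circles (control libraries of set 1) lie lowest, and for Ctse and Treml1 the order of the titled genotypes turns between the sets.

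Y-linked genes were expressed in every library, with Ddx3y at 8.52 to 11.4 FPKM, and Xist was at most 0.00648 FPKM. None of the 4 Y-linked genes tested was called, and 2 of them, Uty and Eif2s3y, were called higher after centring.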

How the data were processed

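RNA-seq was measured in 8 libraries of mouse bone marrow-derived macrophages. The deposited values are FPKM per gene, which the authors made with TopHat 1.4.1 and Cufflinks 1.3.0 on mm10, per the submitters' processing notes. Which gene models were used is not given in the sources used here. FPKM depend on the transcript model, are unstable for genes shorter than a fragment, and split reads of near-identical genes by estimate. Relative depth was recovered from the widths of the deposited confidence intervals: 76.0% to 77.8% of low genes then came within 0.02 of a whole fragment.

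Rows with 1 symbol were summed, and a gene was kept if 2 or more libraries reached 1 FPKM. Set 2 minus set 1 was fitted with limma 3.58.1 (R 4.3.3) on log2(FPKM + 1) with the 4 title groups as terms (3 residual degrees of freedom, empirical Bayes with trend, two-sided, Benjamini-Hochberg over 10934 genes). Interactions left 2 residual degrees of freedom. The libraries were matched by title group because the comparison is defined that way. The procedure was run on simulated data in which few genes were shifted, equally up and down, with independent noise. The data here have many more called genes and a shifted median, so that run does not check the calls made here.

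The comparison, its members and the 44 gene lists were chosen with earlier results of these data known. Named genes are the 12 largest non-overlapping calls in each direction, up to 8 (interferon, stromal, scavenger and chemokine lists) or 4 (other lists) called members with the smallest p, the 3 highest members by level, and members of the interferon, scavenger and chemokine lists whose role is told. The 4 leading genes of each interaction and direction, genes present in 1 set only and a few genes of interest were added. Alternatives changed the pseudocount, filter, scaling, variance model, handling of rows and the libraries used. Some list members are counted but not reported by name here.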

Additional observations from a re-analysis of the deposited data

Results flagged for a closer look

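Among 72 sets of 4 pair differences examined, 5 held a pair that stood apart by Dixon's ratio (above the 95% critical value for 4 values, which chance passes in about 1 of 20 groups). For the chemoattractant receptors (ratio 0.875) the median difference was -0.54 between the Ern1f/fLyz2-Cre control libraries and -0.21 to -0.26 in the other pairs. For the Fc receptors (0.861) it was 0.62 between the Ern1f/f control libraries and 0.23 to 0.29 in the others. For the oxidant and metal response genes (0.846) it was -0.21 between the Ern1f/fLyz2-Cre control libraries and 0.18 to 0.25 in the others. Ern1 (0.870) differed by 0.51 between the Ern1f/fLyz2-Cre IL-4 libraries and by -0.25 to -0.15 in the others. Il1b (0.851) differed by -3.78 between the Ern1f/fLyz2-Cre control libraries and by -0.46 to 0.12 in the others.

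The difference between the sets differed between control and IL-4 libraries, by the interaction test in limma, for Mir223 (7.60), Chi3l3 (-6.09), Snora15 (-6.45), Snora17 (-4.18), Serpina3g (2.18), Tuba8 (2.70), Ccl17 (-2.26) and Ctla2b (2.36). It differed between the titled genotypes for Snora65 (9.70), Ifi202b (-4.18), Snord22 (5.85), Snora28 (5.48), Ctse (-3.33), Treml1 (-2.52) and H2-T24 (-1.72). Each value is the log2 difference in IL-4 or Ern1f/fLyz2-Cre libraries minus that in control or Ern1f/f libraries. Values for the Mir, Snora and Snord genes rest on at most 13 implied fragments in a library.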

How the results depend on the processing

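With no replicate block, that is without matching libraries by title group, 889 genes were called higher and 2191 lower, and 22 of the 165 called genes named above lost the call. Leaving out 1 library gave 743 to 941 genes called higher and 1468 to 1817 lower, 5 to 8 scavenger receptors lower, 2 to 28 interactions with IL-4 and 2 to 29 with the titled genotype. Median centring gave 1667 higher. Control libraries alone gave 1684 lower and IL-4 libraries alone 1391. Libraries titled Ern1f/f alone gave 558 higher and 759 lower, and those titled Ern1f/fLyz2-Cre alone 722 and 1231. Scavenger receptors called lower were 6 with no filter, 3 with IL-4 libraries alone, 3 with Ern1f/f alone and 4 with Ern1f/fLyz2-Cre alone. Interactions with IL-4 numbered 35 with pseudocount 5, 1 with no filter, 8 with centring, 5 with quantile normalization, 24 without trend and 127 with the robust fit. Interactions with the titled genotype numbered 29 with pseudocount 0.1 and 2 each with pseudocount 5, no filter, centring and quantile normalization. The cause was not tested, except that fits on fewer libraries have fewer samples by construction.

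Of the 165 called genes 106 were called under each of the 23 alternatives in which they were tested, and 24 lost the call without some 1 library. No called gene changed sign, but Ftl1 differed by 0 after quantile normalization. The interferon-stimulated, stromal and CC chemokine counts stayed within 1.5 times their value under the alternatives run. Of 828 list medians 776 lay within 1 SD of the pairs. Genes not called changed sign in 35 values over 9 genes. Centring gave 0.0682 for Cd36, 0.0868 for Ern1, 0.0637 for Ifngr2 and 0.0231 for Xbp1, and quantile normalization 0.0729 for Ern1, 0.0103 for Ifngr2 and 0.0543 for Gvin1. Leaving out 1 library gave -0.256 to 0.189 for Cd36, -0.186 to 0.0658 for Ern1, -0.0579 to 0.00914 for Ifngr2, -0.387 to 0.0304 for Ccr2 and -0.106 to 0.586 for Lox. Control libraries alone gave -0.0157 for Ccl6 and 0.0154 for Xbp1. IL-4 libraries alone gave 0.142 for Cd36, 0.178 for Ern1, -0.14 for Lox and -0.12 for Retnla. Ern1f/f libraries alone gave 0.162 for Gvin1, 0.0233 for Ifngr2 and 0.0401 for Xbp1, and Ern1f/fLyz2-Cre libraries alone 0.463 for Cd36, 0.174 for Ern1 and -0.379 for Lox. Depth limits genes under about 1 FPKM, such as Ifnb1.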

Other observations

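Among stress and early response genes, which no comparison above describes, some were called in each direction. Of all tested genes 10.1% were called higher and 23.3% lower. Of 19 targets of ATF4 and CHOP tested 3 were called higher in set 2 and 1 lower. Slc7a11, the cystine transporter gene (0.63 ± 0.16), the metabolic sensor gene Sesn2 (0.56 ± 0.10) and the phosphatase subunit gene Ppp1r15a (0.44 ± 0.09) were higher, and the amino acid transporter subunit gene Slc3a2 (-0.51 ± 0.08) was lower. The call of Slc7a11 was lost without any 1 of 6 libraries (adjusted p from 0.0647 to 0.0818) and that of Ppp1r15a without any 1 of 3 (adjusted p from 0.0502 to 0.0552). Of 15 immediate-early genes 3 were higher and 4 lower. The Krüppel-like factor genes Klf6 (0.65 ± 0.08) and Klf2 (0.79 ± 0.13) and the antiproliferative gene Btg2 (0.59 ± 0.09) were higher, and Junb, a subunit of AP-1, was lower (-0.64 ± 0.10). Of 9 clustered histone genes 0 were called higher and 1 lower, Hist1h2bc (-0.50 ± 0.09).

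A further 3 genes with a called interaction with IL-4 were chosen after their values were seen. Il2ra, the interleukin 2 receptor chain CD25, read 0.0194, 0.0248, 0.0178 and 0.0156 FPKM in set 1 and 5.68, 1.05, 6.33 and 1.01 FPKM in set 2. Ltb, which encodes lymphotoxin β, read 0.259, 0.558, 0.267 and 0.182 FPKM in set 1 and 23.3, 5.56, 20.2 and 5.05 FPKM in set 2. In both genes all 4 libraries of set 2 lay above all 4 of set 1, and its control libraries were above its IL-4 libraries. Fn1, fibronectin, read 60.7, 43.2, 126 and 69.1 FPKM in set 1 and 3.46, 22.8, 7.72 and 76.9 FPKM in set 2, lower in set 2 in 3 of the 4 pairs and by most in the control pairs.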
